A study of Mus musculus with 31 samples.

Results

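Glycogen is the branched glucose store of the liver, and the genes that build it, break it down and set the activity of its enzymes were examined in mice lacking the carbohydrate response element binding protein (ChREBP) in whole or in part. The set comprised 9 genes taken by gene name: Pgm2, Ugp2, Gyg, Gys2, Gbe1, Pygl, Ppp1r3b, Ppp1r3c and Ppp1r3g. All 9 were on the array and all 12 of their probes passed the filter on dim spots, out of 36059 probes with 23968 gene names. They were chosen for their roles, with no threshold on a measured value.

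Liver RNA from 31 male C57BL6/J mice was hybridised to 1-colour Agilent microarrays, 1 array per mouse. ChREBP is encoded by Mlxipl, which gives a long isoform, ChREBPα, and a shorter one, ChREBPβ, that starts at its own first exon (exon 1b). ChREBPβ-deficient mice (n = 8) carried a whole-body CRISPR deletion of exon 1b and were set against their WT littermates (n = 8). Total ChREBP-KO mice (n = 7, replicate 3 not analysed here) lacked both isoforms in the whole body and were set against WT littermates of that line (n = 8). Animals of all groups were fasted for 24 h and then refed for 18 h with drinking water holding 20% glucose, so each level below is one of the refed state only. Deletion was in every tissue, and the labels tie no array to a litter, so litter and genotype effects within a line cannot be told apart. Because the samples are whole liver, a lower signal from fewer cells of a type and one from less RNA per cell cannot be told apart.

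Glucose-6-phosphate is turned to glucose-1-phosphate by phosphoglucomutase and that to UDP-glucose by Ugp2, glycogenin (Gyg) primes the chain, the liver synthase Gys2 lengthens it and Gbe1 inserts branches. The liver phosphorylase Pygl removes glucose from chain ends. Protein phosphatase 1 is brought to the particle by targeting subunits such as Ppp1r3b (GL), Ppp1r3c (PTG) and Ppp1r3g, and acts there on synthase and phosphorylase. ChREBP, with its partner Mlx, is activated by glucose metabolites and binds carbohydrate response elements, pairs of E-box-like motifs a few bases apart. Phosphoglucomutase names have been exchanged between annotations: the probe that the array calls Pgm2 carries the transcript that RefSeq now calls Pgm1, and the array's name is kept here.

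Promoter sequence was compared among the members, from RefSeq windows on GRCm38.p6 that run from 250 bases before to 50 bases after a start. Windows were held for 7 of the 9 members (8 windows). Gys2 and Ppp1r3b, both lower in total ChREBP-KO livers, had none and were not searched. The letters CANGNGNNNNNCNCNTG, a loose form of the paired element, were searched on both strands. They were found in 0.557% of 32851 promoters, and among the members searched in Gbe1 alone, beginning at base 8 of the transcript. The stricter consensus, known as the ChoRE consensus, occurred in 0.119% of promoters and in none of these windows. A single E-box, CACGTG, which overlaps no pair here, was present in 7.15% of promoters and in the windows of Gyg and Ppp1r3c. The D-box letters TTANGTAA, bound by clock output factors, were in 2.32% of promoters and in none of the members' windows. The stretches of Gbe1 (chr16:70313699-70313972, plus strand), Ugp2 (chr11:21371268-21371517, minus strand) and Pygl (chr12:70227684-70227933, minus strand) are shown because those members were among the ones that differed in total ChREBP-KO livers and had windows. Capitals mark the pair, and the Ugp2 and Pygl stretches hold no match to it.
Gbe1: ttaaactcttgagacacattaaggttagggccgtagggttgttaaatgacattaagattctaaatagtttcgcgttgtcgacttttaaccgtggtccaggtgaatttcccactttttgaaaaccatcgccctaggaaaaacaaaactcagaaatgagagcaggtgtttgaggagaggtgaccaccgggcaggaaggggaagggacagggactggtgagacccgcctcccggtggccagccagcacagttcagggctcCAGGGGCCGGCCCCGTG
Ugp2: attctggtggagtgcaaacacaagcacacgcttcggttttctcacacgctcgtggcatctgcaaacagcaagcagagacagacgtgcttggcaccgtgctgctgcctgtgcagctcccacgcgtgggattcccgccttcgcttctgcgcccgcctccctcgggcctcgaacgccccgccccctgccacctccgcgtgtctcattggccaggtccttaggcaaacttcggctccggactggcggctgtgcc
Pygl: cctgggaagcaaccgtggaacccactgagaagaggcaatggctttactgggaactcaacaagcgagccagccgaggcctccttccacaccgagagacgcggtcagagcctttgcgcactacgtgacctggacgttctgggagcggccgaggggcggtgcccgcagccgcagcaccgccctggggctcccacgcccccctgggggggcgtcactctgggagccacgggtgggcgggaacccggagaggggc

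Levels are log2 median spot signals after quantile normalisation across arrays, with no background subtracted, and a difference of 1 is a doubling. Each probe is compared with itself across mice, never with another probe. On the label check, the Mlxipl probe A_55_P2119957 read 15.14 to 15.48 in WT littermates of the total line and 13.89 to 14.30 in total ChREBP-KO livers. Its difference was -1.16 (adjusted p = 8.05e-13). In ChREBPβ-deficient livers it was -0.45 (adjusted p = 0.0152), again without overlap.

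Hepatocyte markers were strong in all 31 arrays. In the total line 3 arrays stood apart, picked after the data were seen. Replicate 2 of the WT littermates of the total line was the lowest of its group on 9 of the 12 member probes. Replicate 6 of total ChREBP-KO had high sums of muscle and adipocyte markers. Its summed linear signal over the 4 muscle markers kept of 6 was 6326, against 301 to 352 in the rest of its group, with Ckm and Mb not above the filter. Its sum over the 4 adipocyte markers kept of 5 (Adipoq was not kept) was 13224, against at most 935 in the rest of its group. Other groups had high adipocyte sums too. They reached 5271 in WT littermates of the total line and 14897 in replicate 6 of the ChREBPβ-deficient mice, whose group median was 5319. Replicate 5 of total ChREBP-KO had a sum of 3063 over 4 of 4 cholangiocyte markers, against at most 1120 in the rest of its group. Leaving out any one of these 3 arrays of the total line left 6 members called in total ChREBP-KO, 5 lower and 1 higher. WT livers of the total line had higher red blood cell sums (151855 to 212011) than WT livers of the ChREBPβ line (59784 to 123836), over 4 of 4 markers. In the total line 8 of 15 clock genes were higher and 3 lower in KO, with Dbp at 9.05 to 10.95 in WT and 12.23 to 14.04 in KO livers (difference 3.19, adjusted p = 0.0143). Fasn, Acly, Srebf1, Scd1 and Pklr, lipogenic and glycolytic genes of refeeding, were lower in total ChREBP-KO. Of the cell type markers, Dcn and Reln (2 of 4 for stellate cells), Epcam (1 of 4 for cholangiocytes), Ttr and Cps1 (2 of 6 for hepatocytes), Alas2 and Ptprc were higher in total ChREBP-KO, and Ctrb1 and Cel (2 of the 3 pancreas markers kept) were lower. Whether any of these differences has a part in the glycogen results was not tested.

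In total ChREBP-KO livers 5 of the 9 genes were lower than in WT littermates and 1 was higher, by limma with p adjusted over all probes. Pygl, Gbe1, Ugp2, Gys2 and Ppp1r3b fell, Pgm2 rose, and Gyg, Ppp1r3c and Ppp1r3g did not pass. Over all genes 33.9% were called in this comparison, 17.1% lower and 17.3% higher. The median difference over the 12 member probes was -0.64, and that over all probes was 0.0083. ChREBPβ-deficient livers gave no call in the set against their WT littermates, beside 0.00417% of all genes, which is the single gene Mlxipl. The values of each gene in each group are drawn by mouse in the plot of member levels.

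**Figure D1:**
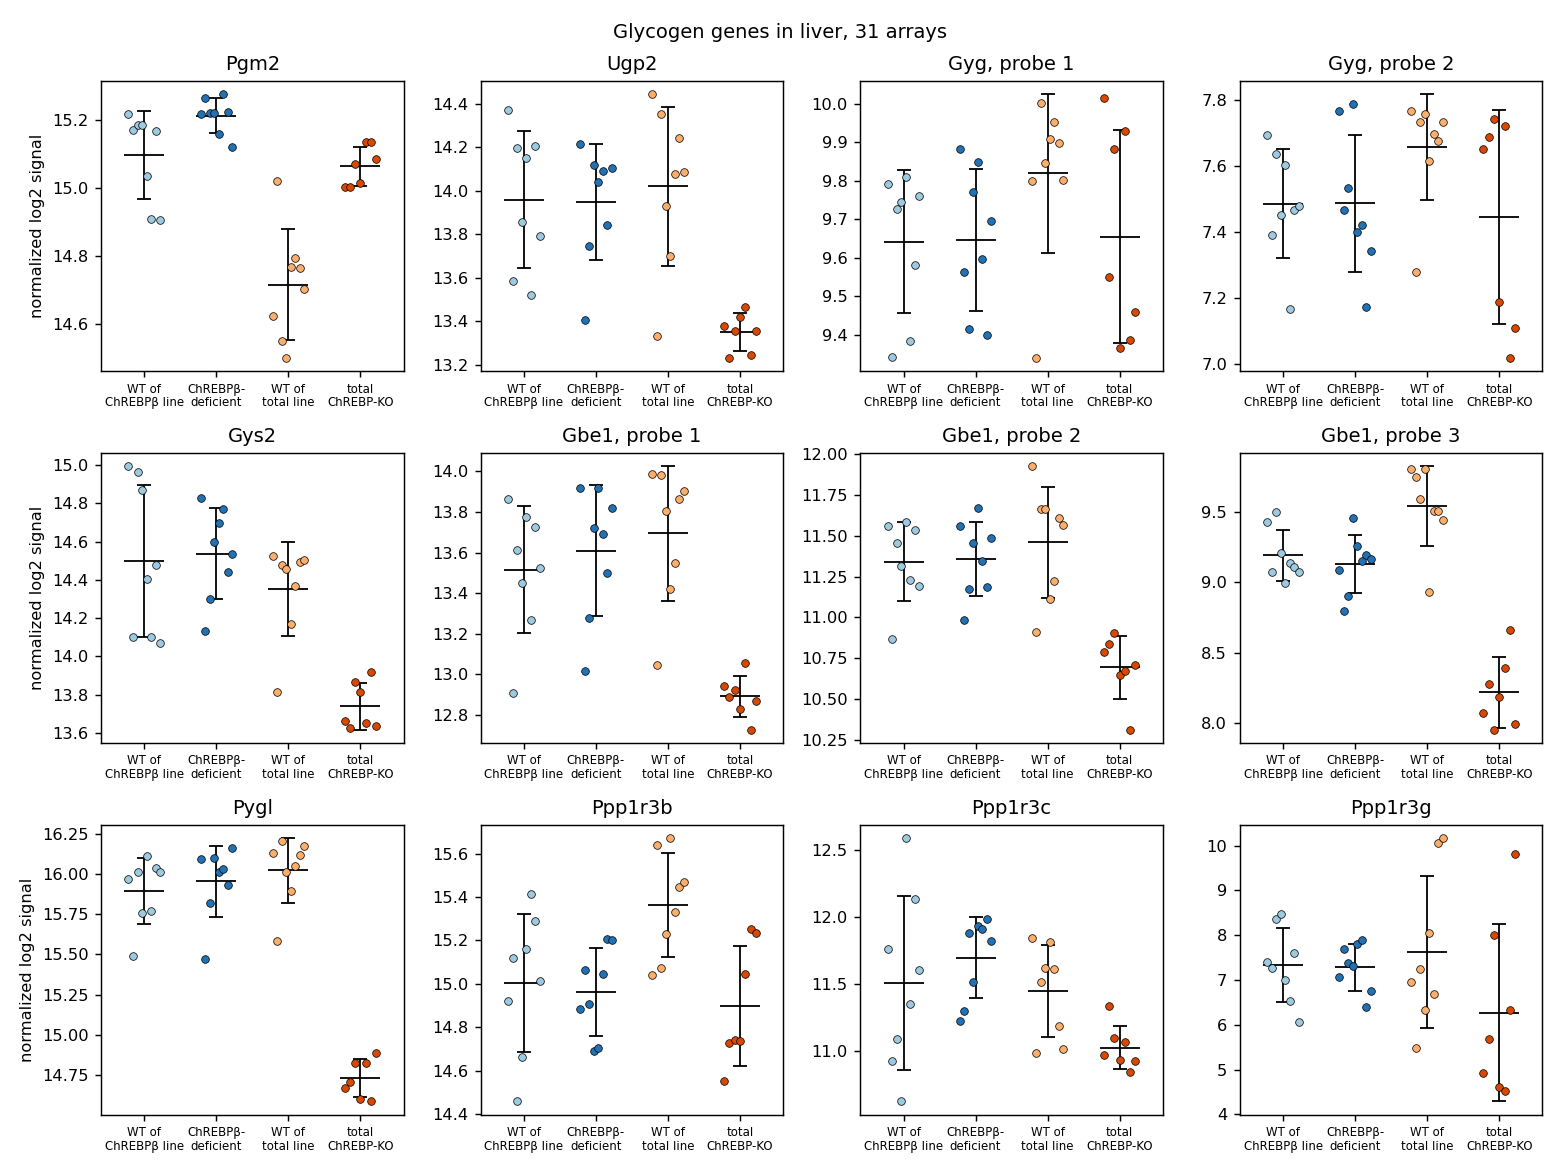
Log2 signal (vertical axis) of each of the 12 member probes in every liver, by group (horizontal axis), with points for mice, bars for group mean and SD, and the probes of Gyg and Gbe1 numbered in the order the text gives them. All 7 total ChREBP-KO points of Pygl (14.59 to 14.89) lie under every WT point of that line (15.58 to 16.20), while the ChREBPβ-deficient points lie among those of their WT littermates.

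Pgm2, the phosphoglucomutase that interconverts the phosphates of glucose, was the one member to rise. Its probe (chr4:99659834-99659893, mm9, plus strand) read 14.50, 14.73 and 15.02 (lowest, median and highest) in WT and 15.00, 15.07 and 15.13 in total ChREBP-KO livers, and WT replicate 2, at 15.02, was the only WT array inside the KO range. The difference was 0.35 (95% confidence interval 0.22 to 0.47, adjusted p = 4.76e-05), 1.27-fold. The rise was relative to littermates: WT livers of the total line were lower than WT livers of the ChREBPβ line by a difference of -0.38 (adjusted p = 3.42e-05). The total ChREBP-KO mean differed from the WT mean of the ChREBPβ line by -0.03 (adjusted p = 0.722). In the ChREBPβ line the values were 14.91, 15.17 and 15.22 in WT and 15.12, 15.22 and 15.28 in ChREBPβ-deficient livers.

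Ugp2, which makes the UDP-glucose that synthase consumes (chr11:21221975-21222034, mm9, minus strand), read 13.33, 14.08 and 14.44 in WT and 13.23, 13.36 and 13.47 in total ChREBP-KO livers. Every KO value was under the WT median, and WT replicate 2, at 13.33, was once more the single WT array within the KO range. The difference was -0.67 (95% confidence interval -0.96 to -0.38, adjusted p = 0.000479, 1.59-fold lower). KO livers spread less than WT livers (SD 0.09 against 0.37). In the ChREBPβ line the ranges were 13.52 to 14.37 in WT and 13.41 to 14.21 in ChREBPβ-deficient livers.

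Gyg, the primer of the chain, did not pass. On A_55_P1992910 it read 9.34, 9.87 and 10.00 in WT and 9.37, 9.55 and 10.01 in total ChREBP-KO livers (difference -0.16, adjusted p = 0.272), and on A_66_P102331 7.28, 7.71 and 7.76 in WT and 7.02, 7.65 and 7.74 in KO (difference -0.21, adjusted p = 0.157). The groups overlapped on both.

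Gys2, the synthase itself (probe at chr6:142371157-142371216, mm9, minus strand), read 13.81, 14.47 and 14.52 in WT and 13.63, 13.66 and 13.92 in total ChREBP-KO livers. Here too WT replicate 2 (13.81) was the only WT array inside the KO range. The fall was -0.61 (SE 0.14, 95% confidence interval -0.89 to -0.33, adjusted p = 0.000899), or 1.53-fold. In the ChREBPβ line Gys2 ran from 14.07 to 15.00 in WT littermates and from 14.13 to 14.83 in ChREBPβ-deficient livers.

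Gbe1, the branching enzyme, was lower on each of its 3 probes. A_51_P273684 (chr16:70569840-70569899, mm9, plus strand) read 13.05, 13.84 and 13.99 in WT and 12.73, 12.89 and 13.06 in total ChREBP-KO livers, a difference of -0.80 (adjusted p = 6.45e-05, 1.74-fold lower). Again only WT replicate 2 fell inside the KO range. On its neighbour A_65_P10159 the values were 10.91, 11.59 and 11.93 in WT and 10.31, 10.71 and 10.90 in KO, a difference of -0.76 (adjusted p = 3.28e-05, 1.70-fold lower). The groups did not overlap, which held for 4.14% of all probes in this direction. The third probe, A_55_P2727654, lies upstream (chr16:70361835-70361894, mm9, plus strand) and is annotated to a separate Ensembl transcript of the gene. It read 8.93, 9.55 and 9.81 in WT and 7.95, 8.18 and 8.66 in KO, also without overlap. Its fall of -1.32 (adjusted p = 4.68e-10, 2.50-fold lower) was the steepest among the member probes called.

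Pygl, the phosphorylase that releases glucose-1-phosphate from glycogen (chr12:71291855-71291914, mm9, minus strand), fell without overlap between groups. Its log2 signal was 15.58, 16.08 and 16.20 in WT littermates and 14.59, 14.71 and 14.89 in total ChREBP-KO livers. The difference was -1.29 (SE 0.097, 95% confidence interval -1.49 to -1.09, adjusted p = 3.21e-11), a level 2.45-fold lower. Both groups of the ChREBPβ line lay near the WT range of the total line: 15.49, 15.99 and 16.11 in WT littermates and 15.47, 16.02 and 16.16 in ChREBPβ-deficient livers. Without WT replicate 2 of the total line all of these falls stayed called and were larger on each probe but A_55_P2727654: -1.35 for Pygl, -0.69 for Gys2, -0.77 for Ugp2, and -0.90, -0.84 and -1.29 on the probes of Gbe1 as ordered above.

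Of the phosphatase targeting subunits, Ppp1r3b, the main liver form, passed the test. Its probe (chr8:36451115-36451174, mm9, plus strand) read 15.04, 15.39 and 15.67 in WT and 14.55, 14.74 and 15.25 in total ChREBP-KO livers, with 3 WT and 3 KO arrays in the shared range. The difference was -0.46 (95% confidence interval -0.73 to -0.20, adjusted p = 0.00707, 1.38-fold lower). As with Pgm2, the WT groups differed, since Ppp1r3b was 0.36 higher in WT livers of the total line than of the ChREBPβ line (adjusted p = 0.0473). The total ChREBP-KO mean was close to that of ChREBPβ-deficient livers, a step of 0.06 (adjusted p = 0.746).

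Ppp1r3c read 10.99, 11.57 and 11.84 in WT and 10.85, 10.97 and 11.33 in total ChREBP-KO livers, and the difference of -0.43 did not pass (adjusted p = 0.118), though it did when the total line was fitted on its own (adjusted p = 0.0247). Ppp1r3g was the most scattered member, at 5.48, 7.11 and 10.17 in WT and 4.53, 5.68 and 9.81 in KO livers, where it was well above background on 5 of 7 arrays. Its difference of -1.36 had an SE of 0.67 (adjusted p = 0.131). Without KO replicate 8, the array at 9.81, it was -1.95 (adjusted p = 0.0146). WT replicates 7 and 8 stood as high, at 10.06 and 10.17. With any single array left out the difference ran from -1.95 to -0.99, with a highest adjusted p of 0.278, and only the omission of KO replicate 8 gave a call.

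The order of the 4 group means was similar for several members. Total ChREBP-KO was the lowest group for Pygl, Gbe1, Ugp2 and Gys2, and the step up to the next group passed the test in each. That step was 1.17 for Pygl (adjusted p = 2.84e-10), 0.60 for Ugp2 (adjusted p = 0.00136), 0.61 for Gys2 (adjusted p = 0.000899), and 0.62, 0.65 and 0.91 for Gbe1. Among the 3 groups above it no neighbouring step passed for these genes, save the top one of Gbe1 on A_55_P2727654 (0.35). For Pgm2 the order was ChREBPβ-deficient, WT of that line, total ChREBP-KO and WT of the total line, and only the last step passed. For Ppp1r3b only the top step passed, from WT of the total line to WT of the ChREBPβ line. For Gyg, Ppp1r3c and Ppp1r3g no step did.

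**Figure D2:**
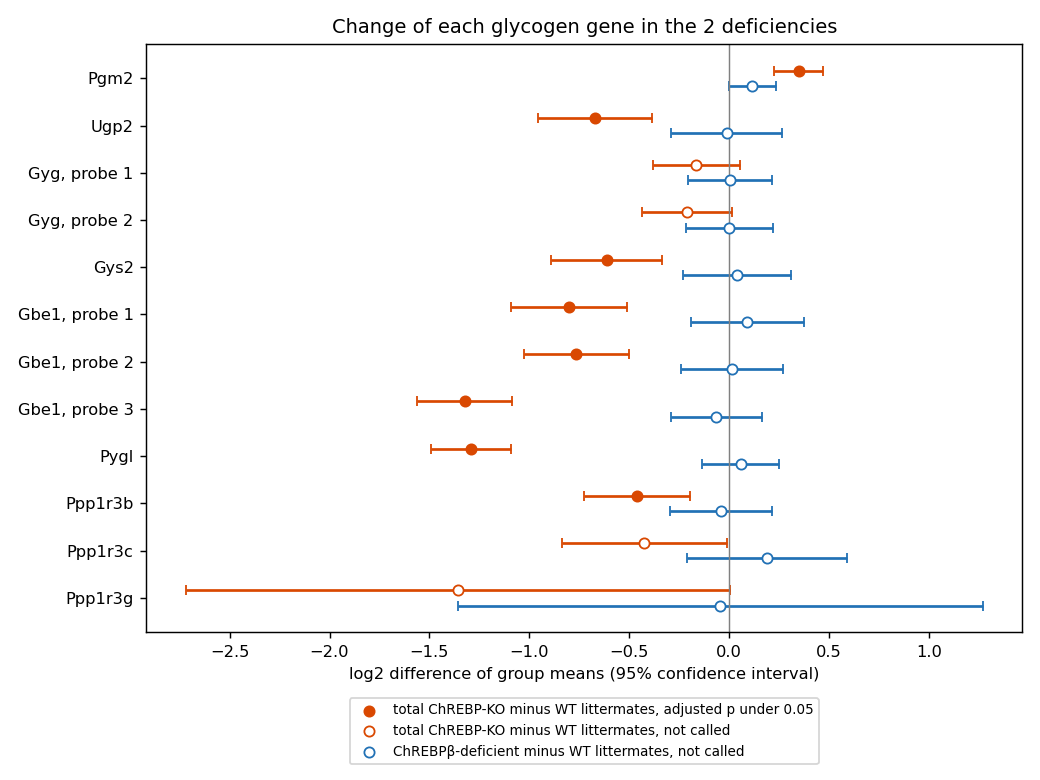
Log2 difference (horizontal axis) with its 95% confidence interval for each member probe (vertical axis), in total ChREBP-KO and in ChREBPβ-deficient livers, each against WT littermates. The intervals of Pygl and Gbe1 in total ChREBP-KO lie well under 0 (-1.49 to -1.09 for Pygl), and those of the ChREBPβ line all cross 0.

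The levels of the ChREBPβ line overlapped for every member. Gbe1 on A_51_P273684 read 12.91, 13.57 and 13.87 in WT littermates and 13.02, 13.71 and 13.92 in ChREBPβ-deficient livers, and on A_55_P2727654 8.998, 9.12 and 9.50 against 8.80, 9.16 and 9.46. Gyg on A_55_P1992910 ran from 9.34 to 9.81 in WT and from 9.40 to 9.88 in ChREBPβ-deficient livers. Ppp1r3b, the liver targeting subunit, read 14.46, 15.07 and 15.41 in WT and 14.69, 14.98 and 15.21 in ChREBPβ-deficient livers. Ppp1r3c read 10.62, 11.47 and 12.59 against 11.22, 11.85 and 11.99, and Ppp1r3g 6.06, 7.33 and 8.47 against 6.40, 7.35 and 7.88. For both of these the WT range was the wider one.

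In ChREBPβ-deficient livers the differences ran from -0.06 to 0.19, with 8 of 12 probes positive and 4 negative. The intervals bound what could have been missed: -0.13 to 0.25 for Pygl, -0.23 to 0.31 for Gys2 and -0.29 to 0.26 for Ugp2. They were -0.19 to 0.37 for Gbe1 on A_51_P273684, -0.30 to 0.21 for Ppp1r3b and -0.21 to 0.59 for Ppp1r3c. For Ppp1r3g the interval, -1.36 to 1.27, was too wide to read. Pgm2 came nearest to the threshold, at 0.12 (-0.0032 to 0.23, unadjusted p = 0.0562). By limma 0 members had an unadjusted p under 0.05, against 6.92% of all genes, and the exact Mann-Whitney test gave 1 at that level, against 8.69% of all genes, and 0 after adjustment.

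The difference between the 2 deficiencies was tested directly, as the total ChREBP-KO change minus the ChREBPβ-deficient change. It was called for 4 members, all lower, against 18.3% of all genes and 9.6% lower. It was -1.35 for Pygl (adjusted p = 4.09e-08), -0.66 for Ugp2 (adjusted p = 0.0199) and -0.65 for Gys2 (adjusted p = 0.0171). For Gbe1 it was -0.89 (adjusted p = 0.00196), -0.78 (adjusted p = 0.00276) and -1.26 (adjusted p = 1.62e-06) on the probes as ordered above. Pgm2 (0.23, adjusted p = 0.0585) and Ppp1r3b (-0.42, adjusted p = 0.118) did not pass. Pgm2 was close to the threshold and was called in 12 of 46 alternatives, among them the deposited values (0.29, adjusted p = 0.00824), over an adjusted p of 0.00824 to 0.343 in all. With the slide entered as a block, Gys2 (-0.38, adjusted p = 0.244) and Ugp2 (-0.39, adjusted p = 0.265) were no longer called, and Gbe1 was called on A_55_P2727654 alone. The same held on the first scan day alone, where Gys2 and Ugp2 gave -0.33 and -0.48 (adjusted p = 0.575 and 0.451), and Ugp2 was not called on the second (-0.76, adjusted p = 0.0644). Ppp1r3c (-0.61, adjusted p = 0.147) and Ppp1r3g (-1.31, adjusted p = 0.386) did not pass either. This test shares its arrays with the comparisons above and is no separate evidence of them.

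Between the WT littermates of the lines 3 members were called, against 21.2% of all genes (11.4% lower, 9.93% higher): Pgm2 lower, Ppp1r3b higher, and Gbe1 higher on A_55_P2727654 alone (0.35, adjusted p = 0.0298). Line, litter and breeding history cannot be told apart in that comparison. The last 2 calls were near the threshold: leaving out any one of 16 arrays ended that of Ppp1r3b, and any one of 5 that of Gbe1. Without WT replicate 2 of the total line they were 0.32 (adjusted p = 0.0876) and 0.32 (adjusted p = 0.0548). The Pgm2 call held whichever array was left out.

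Arrays were scanned on 2 days, and each group was on both. Within the first and the second day the total ChREBP-KO difference was -1.28 and -1.29 for Pygl, -0.67 and -0.67 for Ugp2, and 0.35 and 0.36 for Pgm2. It was -0.58 and -0.65 for Gys2 and -0.56 and -0.30 for Ppp1r3b. With fewer arrays, the first day alone no longer called Gys2 (adjusted p = 0.0563) or Ugp2 (adjusted p = 0.0511), and the second day alone no longer called Ppp1r3b (adjusted p = 0.169). For Gbe1 it was -0.81 and -0.80 on A_51_P273684 and -1.62 and -0.999 on A_55_P2727654.

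How the members varied from mouse to mouse inside a group was then compared over the 31 livers, as deviations from the group mean and with 1 probe a gene. Of 36 pairs, 12 passed by Pearson's r after adjustment over the pairs (10 positive, 2 negative), and 9 passed by both Pearson's r and Spearman's rho. Gbe1 and Ugp2 moved most closely together (r = 0.91, rho = 0.89, adjusted permutation p = 9.00e-05 for r). The raw permutation p was 1e-05, the smallest that the resampling can give, and r was 0.88 without the 2 mice farthest from the median of Gbe1. Replicate 2 was the lowest on Gbe1 in both groups of the ChREBPβ line (12.91 and 13.02) and in WT of the total line (13.05). Leaving out 2 mice does not remove all of these low livers. Gbe1 with Pygl, Ugp2 with Pygl and Gys2 with Ugp2 had the same raw and adjusted p for r. Gbe1 with Pygl gave r = 0.90 and rho = 0.76 (0.85 without such mice), and Ugp2 with Pygl r = 0.84 and rho = 0.73 (0.73). Gys2 joined Ugp2 at r = 0.78 and rho = 0.69 (0.70) and Gbe1 at r = 0.71 and rho = 0.62 (0.62, adjusted p = 6.00e-04 for r).

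Gyg followed the same enzymes more loosely, with r = 0.66 and rho = 0.62 for Gbe1 (adjusted permutation p = 1.44e-04 for r, r = 0.52 without the 2 mice farthest out). It was 0.59 for Pygl (adjusted p = 0.00414) and 0.58 for Ugp2 (adjusted p = 0.00144), each 0.41 without them. Its link to Gys2 (r = 0.46) rested on the 2 mice farthest out, being 0.33 without them (permutation p = 0.0809). Gys2 with Pygl passed by r (0.55, adjusted p = 0.0168) but not by rho (0.30, adjusted p = 0.269). Ppp1r3b ran the other way, at r = -0.53 and rho = -0.49 with Gys2 (adjusted p = 0.0200 and 0.0388). With Gyg it gave r = -0.49 (adjusted p = 0.0256) and rho = -0.47 (adjusted p = 0.0625). With the day of scanning subtracted 15 pairs passed, and within the total ChREBP line alone 5 did. The within-group r of Gys2 with Gbe1 was 0.96 in WT littermates of the total line and -0.62 in total ChREBP-KO livers, and with Pygl 0.97 and -0.47. These group values are descriptions over 8 and 7 mice, and their difference was not tested.

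**Figure D3:**
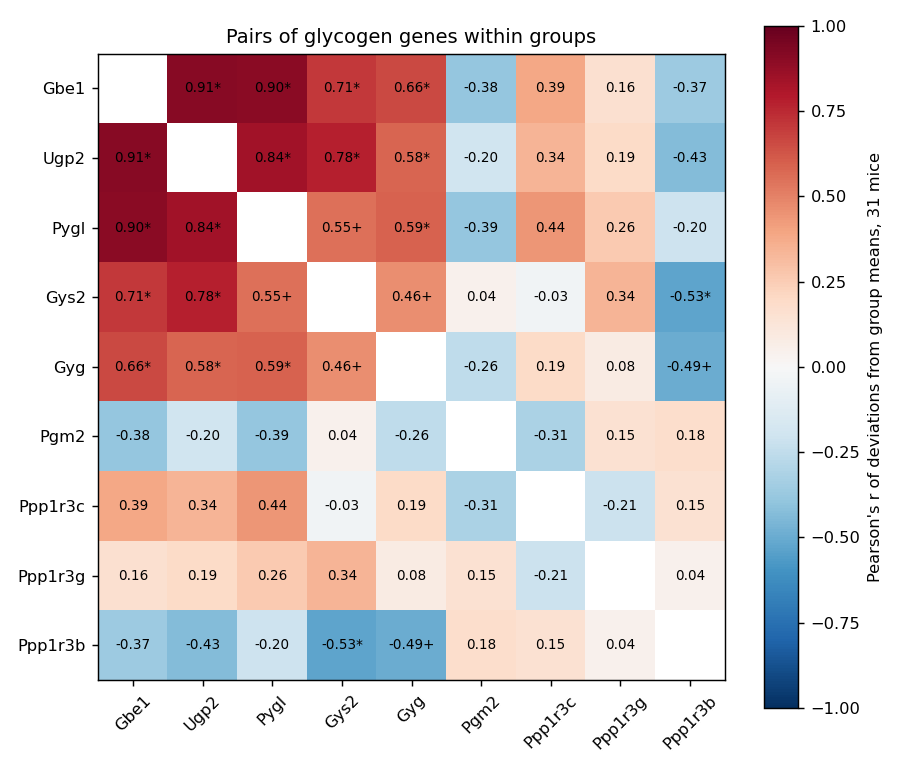
Pearson's r (colour) between each pair of the 9 members (both axes) over 31 livers, after each group's mean was subtracted, where * marks pairs that passed by r and rho after adjustment and + those that passed by r only. Gbe1, Ugp2 and Pygl form the block of highest r (0.84 to 0.91), Gys2 and Gyg have lower positive values with them (0.55 to 0.78), and Ppp1r3b is negative with Gys2 and Gyg.

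Of all other genes on the array, those most like each called member in this mouse-to-mouse variation were named, as a description with no test. For Gbe1 these were Khk, the fructose kinase, Pdhb, a subunit of pyruvate dehydrogenase, and Bri3, each at r = 0.91. Ugp2 was nearest to Bri3 (0.91), Pdhb (0.88) and Gm13212 (0.86). Pygl was nearest to Slc37a4 (0.91), the transporter that brings glucose-6-phosphate into the endoplasmic reticulum, then Khk (0.89) and Edf1 (0.87). Gys2 was nearest to 2900089D17Rik (0.86), Gm15411 (0.85) and Fgfrl1 (0.84). Pgm2 was nearest to Upb1 (0.84), 0610005C13Rik (0.83) and Abhd14b (0.82), and Ppp1r3b to Synpo2l (0.85), Terf2ip (0.84) and Hemgn (0.84). The points share their arrays, so a value common to an array enters all of these.

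The wider pathway was read from a list of 29 further genes, of which 27 were kept on 56 probes (Ppp1r3a and Ppp1r3f were not). In total ChREBP-KO livers 7 were lower, 9 higher and 11 not called, and the median over the probes was 0.06. Among all genes 17.1% were lower and 17.3% higher, by the same rule that 1 called probe suffices. The list held more probes per gene (56 for 27 genes) than the array (36059 for 23968), so these shares are not like for like. By probe, 9 of the 56 were lower and 14 higher. In ChREBPβ-deficient livers 0 were called, with 3 at an unadjusted p under 0.05 by limma.

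Phkg2, the catalytic subunit of the liver phosphorylase kinase that switches Pygl on, was the clearest rise. On A_55_P2108579 it read 11.04, 11.21 and 11.45 in WT and 11.66, 11.69 and 11.90 in total ChREBP-KO livers. The groups did not overlap, against 3.26% of all probes in this direction, and the differences on its probes were 0.50 (adjusted p = 2.71e-06) and 0.57 (adjusted p = 2.80e-06). Phka2, the liver regulatory subunit of that kinase, was higher on 3 of 4 probes (0.30, 0.25 and 0.17). Calm2 and Calm3, which encode another subunit of the kinase, were lower, Calm2 by -0.19 on 1 of 2 probes and Calm3 by -0.28.

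Gsk3b, which phosphorylates and restrains the synthase, was lower on 2 of 4 probes (-0.43 and -0.31). Gsk3a was higher by 0.16 on 1 of 2 probes. Nhlrc1, the malin gene of glycogen quality control, was lower by -0.38. Epm2a, the laforin gene, was lower by -0.27 on 1 of 3 probes, and that probe is annotated to a transcript without a RefSeq match. Its other probes, on the RefSeq transcript, gave 0.08 and 0.0078 and were not called (adjusted p = 0.484 and 0.942). Stbd1, which tethers glycogen to membranes, was higher by 0.57 on 1 of 3 probes. Of the other genes with Pgm names, Pgm3 was lower (-0.41 on 1 of 2 probes), while Pgm5 (0.49) and Pgm2l1 (0.22 on 1 of 2 probes) were higher. A shared name does not place them at the step from glucose-6-phosphate to glucose-1-phosphate. Pygm, the muscle phosphorylase, and Ppp1r3e were higher by 0.30 and 0.20, each on 1 of 2 probes. Both calls ended without KO replicate 6, the array with high muscle and adipocyte marker sums (0.16, adjusted p = 0.0950, and 0.17, adjusted p = 0.0786). The count without that array was 14, with 7 in each direction.

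The direct test between the deficiencies called 8 of these genes, 5 lower (among them Gsk3b, Epm2a, Nhlrc1 and Calm3) and 3 higher (Pgm2l1, Phkg2 and Stbd1). Over all genes 9.6% were called lower and 8.82% higher by that test. For Phkg2 it gave 0.52 and 0.67. WT littermates of the total line were lower than those of the ChREBPβ line in 6 of these genes, among them Phka2, Phkg2, Ppp1ca and Epm2a, and higher in Gsk3b. Between these WT groups 11.4% of all genes were lower and 9.93% higher. Phkg2 differed there by -0.21 and -0.24, and one Phka2 probe by -0.93 without overlap, against 1.17% of all probes in that direction.

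**Figure D4:**
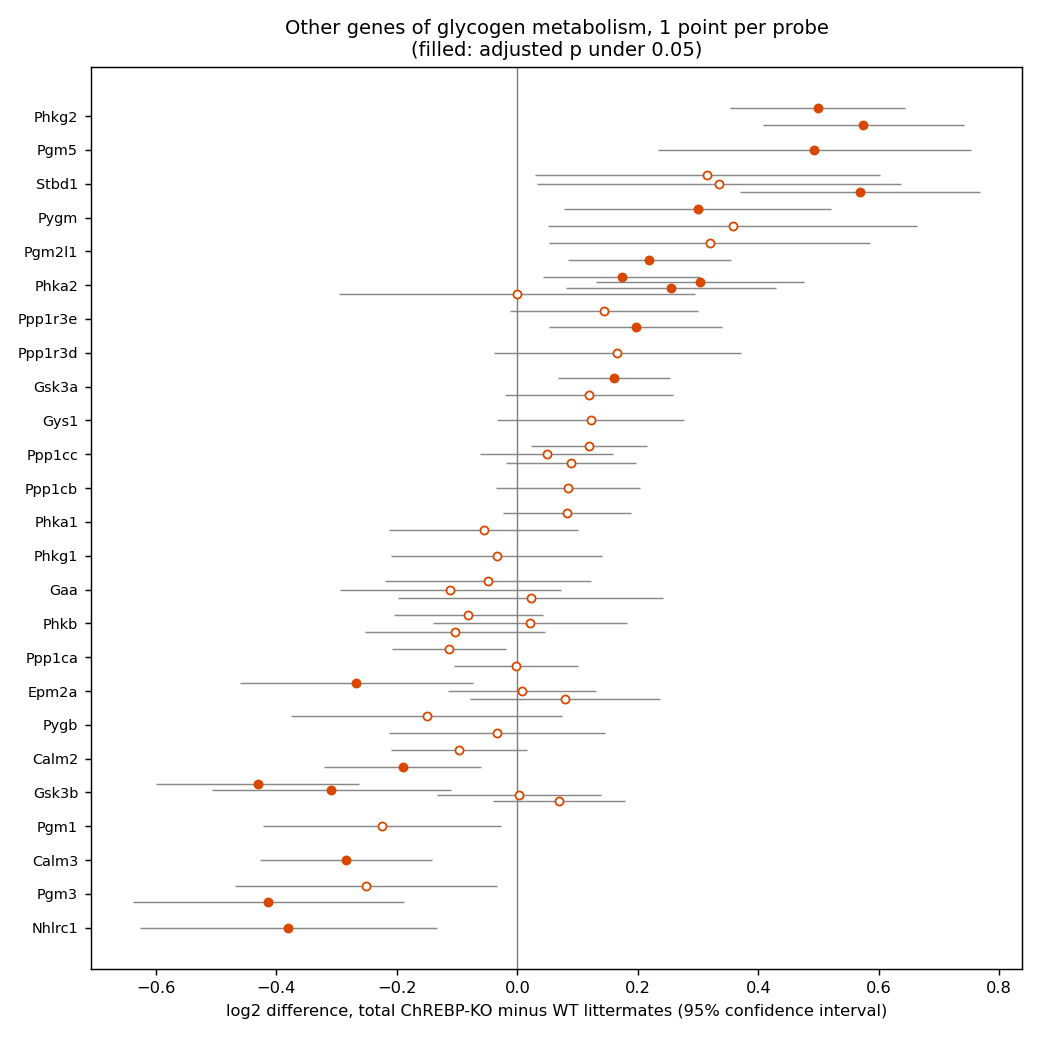
Log2 difference (horizontal axis) of each probe of 25 further glycogen genes (vertical axis) in total ChREBP-KO livers against WT littermates, with lines for 95% confidence intervals and filled points for adjusted p under 0.05. Phkg2 (0.50 and 0.57) lies to the right and Calm3 (-0.28) to the left.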

How the data were processed

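Liver RNA was measured on SurePrint G3 Mouse arrays and read with Agilent Feature Extraction 10.10.1.1, per the submitters' processing notes. The deposited scanner files hold spot intensity, the gMedianSignal and the flags of each spot. The authors also deposited normalised log2 values, for 36057 probes with 50 missing values. Here the intensity was quantile normalised and taken to log2, which differed from those values by at most 0.125 on member probes. A spot had weight 1 when found, significant and well above background, and was kept where 26 or more of the arrays, or 6 or more within a single group, gave it that weight. Each array had 34131 to 38612 such spots, and spots of 1 probe were averaged by their median. The number of arrays limits the precision.

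One limma fit (R 4.3.3, limma 3.58.1, with version 1.17.8 of data.table to read files) over the 4 groups gave two-sided p-values, adjusted by Benjamini-Hochberg over all probes of a contrast, with calls under 0.05. A gene was called when at least 1 of its probes was, and the script was tested on simulated data. Pairs used 100000 permutations of mice within groups, two-sided. Plots used matplotlib 3.10.9. The p-values measure the spread between mice, whose litters the labels do not give. The text names the 9 members, further glycogen genes called in any contrast (some are counted but not reported here by name), and the 3 genes most alike to each called member. Members and lists were chosen with earlier results of these data known. Replicate 3 of total ChREBP-KO was not analysed here. Alternatives were other background corrections, scalings and filters, the deposited table, array weights, slide and scan day, the replicate number, other tests, and leaving out arrays.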

Additional observations from a re-analysis of the deposited data

Results flagged for a closer look

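In 3 cases a single liver stood out, among 48 sets of one probe in one group that were examined, where about 1 in 20 would by chance. Replicate 2 of the WT littermates of the total line was far below its group on both Gyg probes. It read 9.34 on A_55_P1992910, where the nearest other liver was at 9.80, and 7.28 on A_66_P102331, where the nearest was at 7.61. Replicate 5 of the same group read 8.93 on the Gbe1 probe A_55_P2727654, with the nearest at 9.45. Without replicate 2 the total ChREBP-KO falls of Gys2, Ugp2 and Pygl and the rise of Pgm2 were larger and stayed called.

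The change differed between the deficiencies, by limma's test of the total ChREBP-KO change minus the ChREBPβ-deficient change, in 4 genes. The difference was -0.65 for Gys2, -0.66 for Ugp2 and -1.35 for Pygl. For Gbe1 it was -0.89 on A_51_P273684, -0.78 on A_65_P10159 and -1.26 on A_55_P2727654. With slide as a block, and on the first scan day alone, Gys2 and Ugp2 were not called and Gbe1 was called on A_55_P2727654 only.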

How the results depend on the processing

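The count of members called in total ChREBP-KO was 6, and 4 to 7 under the 49 alternatives, with 6 to 7 when any single array was left out. In ChREBPβ-deficient livers it was 0 under all of them. None of the 563 alternative values of the total ChREBP-KO differences changed sign, 3 lost their call and 5 gained one. Ppp1r3g was called with array weights (-2.25, adjusted p = 0.0138), Ppp1r3c with each line fitted on its own (-0.43, adjusted p = 0.0247), and Gyg without WT replicate 2 and KO replicate 6 of the total line together (-0.28 and -0.31), a choice made after the data were seen. The exact Mann-Whitney test with adjustment called 5 members, and a fold of at least 1.5 left 4, all lower.

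The count for the difference between the deficiencies was 4. It was 2 on the first scan day alone and 2 with slide as a fixed block (Gys2 and Ugp2 lost in both), and 4 to 5 when single arrays were left out. Between WT littermates it was 3. It was 1 on the second scan day, 1 with slide as a fixed block, 1 without the pair of arrays just named, and 1 to 3 when single arrays were left out. The value of 1 came without replicate 2 or 4 of the total line or replicate 2 of the ChREBPβ line. The count of further glycogen genes called in total ChREBP-KO was 16, then 8 and 9 within the first and the second scan day and 12 to 18 when single arrays were left out. Of all 36 pairs of members, 12 passed over the 31 livers and 5 within the total ChREBP line alone. Those 5 included Pgm2 with Ppp1r3b (r = 0.68), which was not among the 12. The cause of these moves beyond the smaller number of arrays was not tested.

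Replicate numbers were not taken to pair the livers, since no source says that they do and not every same-numbered pair deviated together. In the total line r ran from -0.21 to 0.24, over 0.1 in 2 of 7 pairs, and 1 array matched its own number best. In the ChREBPβ line it ran from -0.16 to 0.53, over 0.1 in 6 of 8 pairs, and 4 arrays matched their own number best. With the replicate number as a block the counts were 6 in total ChREBP-KO, 0 in ChREBPβ-deficient livers, 5 for the difference (Ppp1r3b added, -0.46, adjusted p = 0.0187), 3 between WT littermates and 16 further glycogen genes.

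Some values changed sign, most of them near 0 and none of them called. In ChREBPβ-deficient livers on the first scan day they were -0.10 for Gbe1 on A_51_P273684 and on A_65_P10159, -0.073 for Gyg on A_55_P1992910, -0.24 for Gys2, 0.036 for Ppp1r3b and -0.046 for Pygl. On the second they were -0.031 for Gyg on A_66_P102331, 0.29 for Ppp1r3g and 0.086 for Ugp2. With slide as a block Gbe1 on A_65_P10159 was -0.0075 and Gys2 -0.056. Gyg on A_66_P102331 was -0.0012 with normexp and -0.0016 with spots of weight 1 on all arrays. Gys2 was -0.032 and -0.028 when gMedianSignal and gProcessedSignal were scaled to the 75th percentile, and Ugp2 0.0085 with array weights. Between WT littermates, Ppp1r3c was 0.18 on the first scan day, 0.014 with slide as a block and 0.0071 without the pair of arrays. Ppp1r3g was -1.27 on the first day, Gbe1 on A_65_P10159 -0.00032 on the second, and Ugp2 -0.15 with slide as a block. The difference between deficiencies for Gyg on A_55_P1992910 was 0.029 on the first day.

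When single arrays were left out, the ChREBPβ-deficient difference ran from -0.022 to 0.11 for Gys2, -0.039 to 0.039 for Gyg on A_55_P1992910, -0.045 to 0.045 on A_66_P102331, -0.052 to 0.069 for Gbe1 on A_65_P10159 and -0.075 to 0.064 for Ugp2. It ran from -6.73e-05 to 0.13 for Pygl, -0.12 to 0.016 for Ppp1r3b and -0.23 to 0.12 for Ppp1r3g. The difference between WT littermates ran from -0.00078 to 0.16 for Ugp2, -0.19 to 0.096 for Ppp1r3c and -0.071 to 0.60 for Ppp1r3g. Ppp1r3g was the one member not well above background on every array, being so on 5 of 7 in total ChREBP-KO. In WT littermates of the total line it was well above background on 8 of 8 arrays and still had an SD of 1.70.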
